A study of Mus musculus with 30 samples.

Results

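Ighv2-2 is a V segment of the mouse immunoglobulin heavy chain locus (Igh) and belongs to the Ighv2 family, also called Q52. It lies near the D-proximal end of the V cluster, just beyond Ighv5-2, the segment known as VH81X. Its joins were followed in libraries made by HTGTS-V(D)J-seq, a method that amplifies genomic DNA from a fixed bait and sequences across the junction to whatever the bait was joined to. The reads started in JH4, one of the J segments. A junction was assigned to Ighv2-2 when it lay on chromosome 12 within 100 bp of the segment. The segment spans positions 114826478 to 114826911 in mm9, the build used for the v-Abl libraries. In the target used for the bone marrow libraries, in which a 129 strain Igh sequence stands in for that part of mm9, it spans positions 114846142 to 114846575. Of 2074993 junctions in 30 libraries, 57024 were Ighv2-2 joins, of which 54125 came from bone marrow libraries and 2899 from v-Abl libraries. They were described among 143 V and 24 D segments in the bone marrow libraries and among 123 V and 21 D segments in the v-Abl libraries.

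The study asked how IGCR1 and the CTCF binding elements (CBEs) at the 3' end of Igh take part in the developmental control of V(D)J recombination. The 18 bone marrow libraries came from primary pro-B cells of 129SV mice, sorted as B220+IgM-CD43+, with 3 libraries for each of 6 genotypes of IGCR1. These were WT, loss of both of its CBEs (CBE1&2-/-, written CBE12mut), loss of CBE1 (CBE1-/-, written CBE1mut) or of CBE2 (CBE2-/-, written CBE2mut), and inversion of CBE1 (CBE1inv/inv) or of CBE2 (CBE2inv/inv). The 12 v-Abl libraries came from C57BL/6 pro-B cells transformed by the Abelson virus oncogene, and all 4 of their groups shared a RAG1-/- background, an Emu-Bcl2 transgene, a WAPL degron, a single Igh locus, infection with a RAG1/2 retrovirus and arrest in 3 µM STI-571 for 4 days. They were either WT or lacked the 3' Igh CBEs (3CBEdel), and each genotype was left untreated or was given 150 µM indole-3-acetic acid (IAA) with 2 µg/mL doxycycline (Dox) over the last 3 days, which is the treatment that acts on a degron-tagged protein. The labels do not say how many mice gave a library, or whether the v-Abl replicates were separate clones, so p-values concern these libraries and not mice or clones. The sorted cell type cannot be checked against markers, since the libraries hold genomic DNA and no RNA.

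As background, RAG cuts between a coding segment and its recombination signal sequence (RSS), which is made of a heptamer, a spacer and a nonamer, and both coding ends are then joined. In pro-B cells a D is joined to a J first, and a V is joined to that DJ afterwards. IGCR1 is a regulatory region between the V segments and the D segments, and its 2 CBEs bind CTCF, a protein that stops or slows the extrusion of chromatin loops by cohesin. WAPL releases cohesin from chromatin. Many V segments have a CBE of their own just past their RSS, and the D-proximal V segments are the first that chromatin scanning from the D side reaches.

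The coding ends of Ighv2-2 and of its neighbours are shown because nearly all of the Ighv2-2 joins were made at its coding end. Each line runs 5′ to 3′ on the minus strand of mm9 chromosome 12 and starts with the last 30 coding bases in lower case. Capitals mark the heptamer, the nonamer and, where present, a match to a core of the CTCF motif written as CCNNNAGGGGGC. For these lines the match was searched past the nonamer on the strand shown.

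Ighv5-1 (12:114811043-114811167): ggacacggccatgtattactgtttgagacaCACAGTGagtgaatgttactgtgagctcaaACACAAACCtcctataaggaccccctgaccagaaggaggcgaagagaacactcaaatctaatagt
Ighv5-2 (12:114816620-114816744): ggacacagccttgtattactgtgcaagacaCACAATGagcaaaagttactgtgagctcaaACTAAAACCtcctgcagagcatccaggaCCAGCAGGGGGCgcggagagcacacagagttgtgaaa
Ighv2-2 (12:114826383-114826507): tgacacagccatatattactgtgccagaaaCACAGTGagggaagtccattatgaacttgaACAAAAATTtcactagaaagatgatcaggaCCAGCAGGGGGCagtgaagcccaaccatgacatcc
Ighv5-4 (12:114835562-114835686): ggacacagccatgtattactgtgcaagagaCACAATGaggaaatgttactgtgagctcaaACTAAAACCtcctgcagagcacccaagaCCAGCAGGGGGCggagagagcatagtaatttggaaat
Ighv2-3 (12:114849300-114849424): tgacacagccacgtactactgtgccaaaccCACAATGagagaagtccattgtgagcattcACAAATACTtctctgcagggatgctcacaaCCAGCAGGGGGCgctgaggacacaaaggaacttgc

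Ighv2-2 had the consensus heptamer, with 0 mismatches, and a nonamer with 2 mismatches, whereas Ighv5-2 had 1 mismatch in each. The motif match began 60 bases past the coding end of Ighv2-2 and 58 bases past that of Ighv5-2. For 112 V segments a window of 100 bases past the coding end was searched on both strands. In 23 (20.5%) it held the motif, 8 of them among the 10 Ighv2 segments, and the consensus heptamer was present in 72 (64.3%). A match describes letters in the window and is not a measured CTCF site. In the mm9 gene model Ighv2-2 carries the identifier ENSMUSG00000076634 and 2 exons. The leader exon runs from 114826866 to 114826911 and the V exon, whose D-proximal end is the coding end, runs from 114826478 to 114826781. The start of Ighv2-2 lies 9763 bp beyond that of Ighv5-2 and 15340 bp beyond that of Ighv5-1, and Ighv5-4, Ighv2-3 and Ighv5-6 follow at 9179, 22917 and 37239 bp on its far side. The consensus of the bone marrow reads at Ighv2-2, used here for the 129 sequence, differed from mm9 at 1 of 300 bases. This was G32A, counted upstream from the coding end on the sense strand with the mm9 base first.

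Some Ighv2 segments are near copies, so the reads were compared with them base by base. The closest copy in the bone marrow target, an unnamed Ighv2 segment starting at 115073093, differed from Ighv2-2 at 3 of 288 bases, and Ighv2-4 at 5. Of 50422 bone marrow reads compared with these 2 copies, 99.98% were closer to Ighv2-2 and 0 were closer to either copy. Each bone marrow sequence was, however, the consensus of reads already aligned at that segment. The bone marrow reads were thus compared with their own consensus, which cannot decide whether the alignment placed them correctly. The v-Abl reads were compared with mm9 itself. All 2723 v-Abl reads compared were closer to Ighv2-2 than to Ighv2-3, Ighv2-4 or the other 4 named family members tested.

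The libraries came from 5 sequencing runs, as their read names show. Bone marrow WT, CBE12mut, CBE1mut and CBE1inv libraries shared a run and held 57970 to 98682 junctions each. The CBE2inv and CBE2mut libraries were in a run of their own with 11105 to 41433 junctions, so wherever they are set against the rest, effects of the genotype and of the run cannot be told apart. Untreated v-Abl libraries held 82947 to 175957 junctions and treated ones 13180 to 31275, and 8 of the 12 shared a run that had all 4 groups. The deposited lists mark no line as a duplicate. Counting joins with the same V end, JH4 end and inserted bases once left 243 to 1863 distinct Ighv2-2 joins per bone marrow library, 98 to 204 per untreated v-Abl library and 11 to 27 per treated one. No more than 2 distinct joins with at least 12 inserted bases were shared by any pair of bone marrow libraries, while pairs of untreated v-Abl libraries shared 4 to 12.

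In bone marrow pro-B cells Ighv2-2 was joined more often in every IGCR1 genotype than in WT. WT libraries had 1933, 2268 and 1839 Ighv2-2 joins per 100000 junctions (2013 ± 226, SD, n = 3). CBE12mut libraries had 6784, 7363 and 6594 (6913 ± 401), which is 3.43 times the WT mean. CBE1mut libraries had 7553, 6540 and 7409 (7167 ± 548), 3.56 times the WT mean, so the genotypes without CBE1 stood highest and their values overlapped each other. CBE2mut libraries had 5365, 5142 and 4931 (5146 ± 217). The inversions were lower, at 3666, 3242 and 3693 (3534 ± 253) in CBE1inv and at 3486, 3090 and 3143 (3240 ± 215) in CBE2inv, and these 2 groups overlapped. No library of any mutant genotype was as low as the highest WT library. The order of the means was therefore CBE1mut, CBE12mut, CBE2mut, CBE1inv, CBE2inv and WT, with overlap between the first pair and between the 2 inversions (exact two-sided permutation p = 0.7 and 0.2) and none elsewhere. Over the 6 genotypes, the variance between group means was larger than in any of 100000 permutations of the libraries (p = 1e-05, the smallest they can give).

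**Figure D1:**
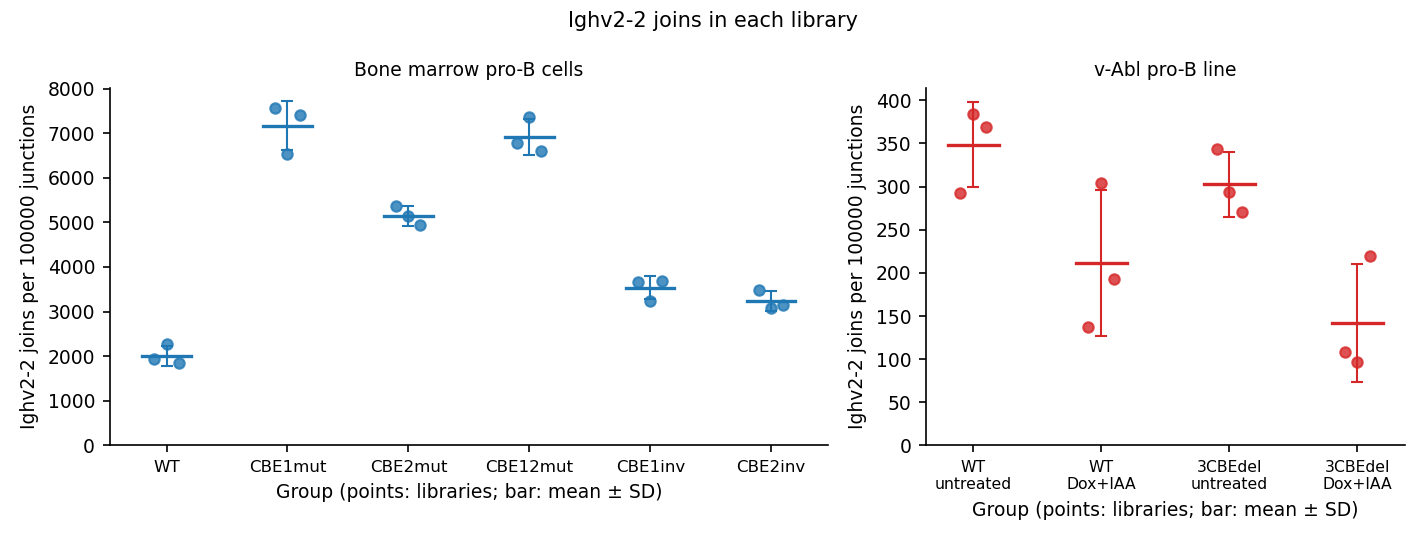
Ighv2-2 joins per 100000 junctions (y axis, separate linear scales for bone marrow and v-Abl libraries) in each of the 10 groups. Points are libraries and the bar and whiskers are the mean and SD of 3 libraries. All 15 libraries of mutant bone marrow genotypes lie above the WT range of 1839 to 2268.

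The differences were tested with limma's voom model on the junction counts of all fitted segments, with Benjamini-Hochberg adjustment over the 159 bone marrow segments. Limma draws on the variance of all fitted segments, with 41.7 degrees of freedom here and 153.5 for the bone marrow shares below. Its small p-values therefore do not measure the spread of Ighv2-2 alone. An exact permutation of 3 against 3 libraries cannot give a p below 0.1. Ighv2-2 rose by 1.79 ± 0.11 (log2 ± SE, adjusted p = 1.1e-18) in CBE12mut against WT, where 5 segments (3.14%) were called higher and 139 (87.4%) lower. In CBE1mut it rose by 1.85 ± 0.11 (adjusted p = 9.33e-19), with 2.52% of segments called higher and 60.4% lower. Ighv2-2 was thus one of few segments that went up while most went down. Its change was 0.83 ± 0.12 in CBE1inv (adjusted p = 3.35e-07; 2.52% called higher, 6.92% lower) and 1.37 ± 0.13 in CBE2mut (adjusted p = 2.36e-11; 5.66% higher, 6.92% lower). In CBE2inv it was 0.70 ± 0.15 (adjusted p = 0.00102; 2.52% higher, 2.52% lower). Counted from the largest rise to the largest fall, Ighv2-2 stood at place 5 of 159 in CBE12mut and at place 4 in CBE1mut. It stood at place 9 in CBE1inv and place 6 in CBE2mut.

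Scaling the libraries by median-of-ratios size factors, which sets the median segment level instead of the total number of junctions, moved the median change of all segments upwards from -1.996 in CBE12mut and -1.02 in CBE1mut. Relative to it Ighv2-2 changed by 3.74 in CBE12mut, with 15 segments called higher and 6 lower, and by 2.83 in CBE1mut, with 7 higher and 0 lower. The direction for Ighv2-2 was the same, while the split of calls over all segments turned from mostly lower to mostly higher. For the other genotypes the values were 0.99 in CBE1inv, 1.70 in CBE2mut and 0.61 in CBE2inv. The last of these no longer passed the test (adjusted p = 0.16).

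Loss and inversion of the same element were compared directly. Ighv2-2 joins fell by 1.02 ± 0.09 (log2 ± SE) in CBE1inv against CBE1mut (limma adjusted p = 1.21e-12; 42.8% of segments were called higher and 3.14% lower). With median-of-ratios scaling the fall was 1.84 and the split of calls was 0 higher and 7 lower. They fell by 0.67 ± 0.15 in CBE2inv against CBE2mut, 2 genotypes of one run (adjusted p = 0.00274; 1.89% called in each direction), and by 1.08 with median-of-ratios scaling. Losing CBE2 in addition to CBE1 left the Ighv2-2 level within its error of CBE1mut: the difference was -0.06 ± 0.08 with a 95% interval from -0.21 to 0.10 (adjusted p = 0.541; 1.89% of segments higher, 53.5% lower). This comparison depended on the scaling, with a difference of 0.91 (adjusted p = 0.00353) under median-of-ratios factors. CBE12mut exceeded CBE2mut by 0.42 ± 0.11 (adjusted p = 8.9e-04; 2.52% higher, 67.9% lower), a comparison across runs, and by 2.05 with median-of-ratios scaling.

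In bulk libraries more cells with a completed V join and more use of Ighv2-2 per V join give the same level, so Ighv2-2 was also expressed as a share of all V joins. The amount of V joining itself differed by genotype: per 100000 junctions the WT libraries had 29085 to 35431 V joins, CBE12mut libraries 82634 to 85821, CBE1mut libraries 69767 to 71637 and the other 3 genotypes 36003 to 51409. Ighv2-2 made up 5.46%, 6.65% and 6.32% of V joins in the WT libraries (6.14% ± 0.618, SD, n = 3). Its share was 7.90%, 8.61% and 7.98% in CBE12mut (8.17% ± 0.390), and 10.8%, 9.13% and 10.5% in CBE1mut (10.1% ± 0.898). Both groups lay above all WT libraries and did not overlap each other.

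CBE2mut, rather than the genotypes without CBE1, had the highest share, with 10.4%, 13.3% and 13.7% (12.5% ± 1.78). CBE1inv libraries had 8.47%, 7.12% and 8.01% (7.87% ± 0.682) and CBE2inv libraries 9.32%, 7.52% and 7.86% (8.23% ± 0.955). In the order CBE2mut, CBE1mut, CBE2inv, CBE12mut, CBE1inv, WT, each genotype overlapped the next except CBE1inv and WT. Ighv2-2 was the second most used V segment, at rank 2 behind Ighv5-2, in all 18 bone marrow libraries.

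**Figure D2:**
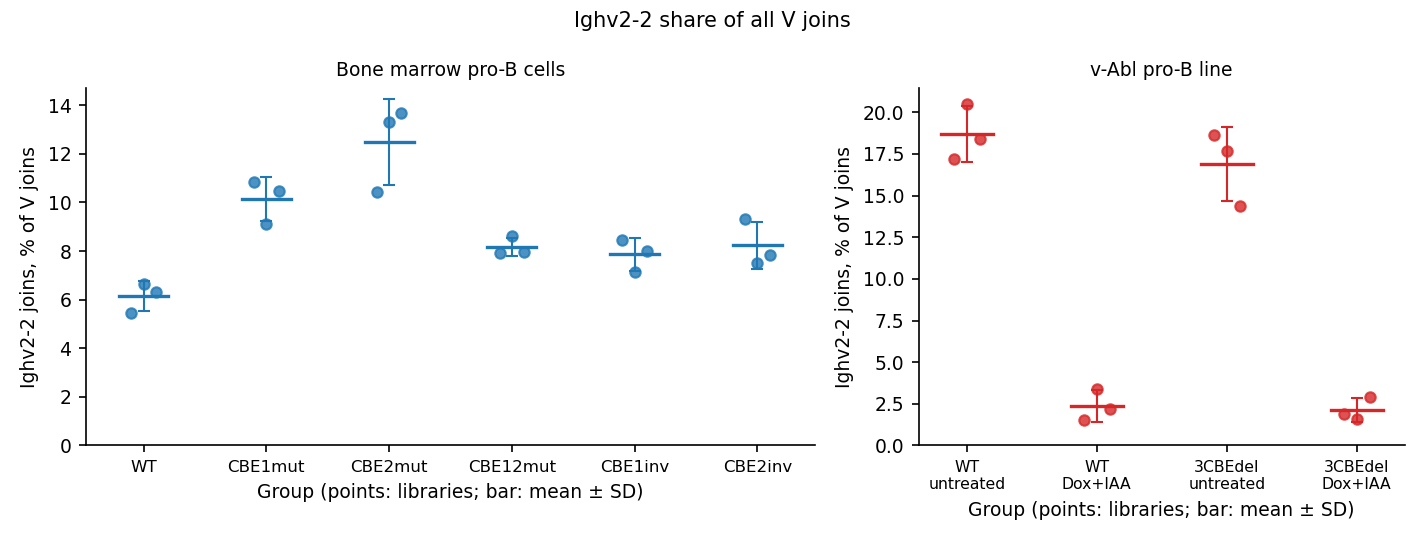
Ighv2-2 as percent of all V joins (y axis) in each of the 10 groups. Points are libraries, and the bar and whiskers are the mean and SD of 3 libraries. Shares are 5.46% to 6.65% in WT bone marrow, reach 13.7% in CBE2mut, and in v-Abl libraries drop from means of 18.7% and 16.9% untreated to 2.37% and 2.13% treated.

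Tested among the 136 fitted V segments of bone marrow, the share rose by 0.42 ± 0.13 (log2 ± SE) in CBE12mut against WT (limma adjusted p = 0.00119; 2.21% of segments called higher, 97.8% lower). It rose by 0.73 ± 0.13 in CBE1mut (adjusted p = 7.5e-08; 2.21% higher, 96.3% lower) and by 1.01 ± 0.14 in CBE2mut (adjusted p = 2.37e-09; 5.88% higher, 35.3% lower). In CBE1inv the change was 0.36 ± 0.13 (adjusted p = 0.0197; 2.21% higher, 44.9% lower). That last call did not hold with a limma trend fit (0.36, adjusted p = 0.0625), with junctions inside the segment only (0.30, adjusted p = 0.0539), or without WT replicate 1, CBE1inv replicate 1 or CBE1inv replicate 3 (adjusted p = 0.129, 0.0935 and 0.0592). In CBE2inv the difference of 0.42 ± 0.15 missed the threshold (adjusted p = 0.0913; 0.0% higher, 0.735% lower), and it passed when only distinct joins were counted (0.56, adjusted p = 0.00371).

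Between mutants, the share fell by 0.37 in CBE1inv against CBE1mut (limma adjusted p = 0.00282; 89.7% of segments higher, 2.21% lower) and by 0.58 in CBE2inv against CBE2mut (adjusted p = 0.00301; 10.3% higher, 2.21% lower). The latter did not pass without CBE2inv replicate 2 or CBE2mut replicate 3 (adjusted p = 0.0776 and 0.091). It fell by 0.31 in CBE12mut against CBE1mut (adjusted p = 0.0097; 0.735% higher, 69.9% lower), which did not pass without CBE1mut replicate 1 (adjusted p = 0.0584). Against CBE2mut the fall in CBE12mut was 0.59 (adjusted p = 1.36e-05; 1.47% higher, 92.6% lower). So the double mutant, with nearly the highest level per 100000 junctions, had a lower share of V joins than either single mutant.

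Relative to Ighv5-2, its neighbour on the D side, Ighv2-2 was used much less in genotypes with a changed CBE1. There were 0.548, 0.578 and 0.555 Ighv2-2 joins for each Ighv5-2 join in the WT libraries (0.560 ± 0.0158). The ratio was 0.104, 0.117 and 0.107 in CBE12mut (0.109 ± 0.00688), 0.172, 0.136 and 0.159 in CBE1mut (0.156 ± 0.0182) and 0.220, 0.183 and 0.207 in CBE1inv (0.203 ± 0.0184). These 3 groups overlapped neither WT nor each other. With CBE1 in place the ratio was close to WT, at 0.538, 0.526 and 0.526 in CBE2mut (0.530 ± 0.00706) and at 0.541, 0.620 and 0.722 in CBE2inv (0.628 ± 0.0909).

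On the log2 scale the mean ratio was lower than in WT, with differences of -2.36 for CBE12mut, -1.86 for CBE1mut and -1.47 for CBE1inv. The differences were -0.08 for CBE2mut, whose 3 libraries lay just below the WT range, and 0.15 for CBE2inv, which overlapped WT (exact permutation p = 0.4). Each of the other 4 had an exact two-sided p of 0.1, the smallest that 3 against 3 libraries allow, and 0.14 after adjustment over the 14 contrasts. Inversion of CBE1 gave a ratio 0.39 above its loss, and loss of both CBEs one 0.50 below loss of CBE1 alone, each without overlap. Over the 6 genotypes p was 1e-05, again the smallest possible.

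**Figure D3:**
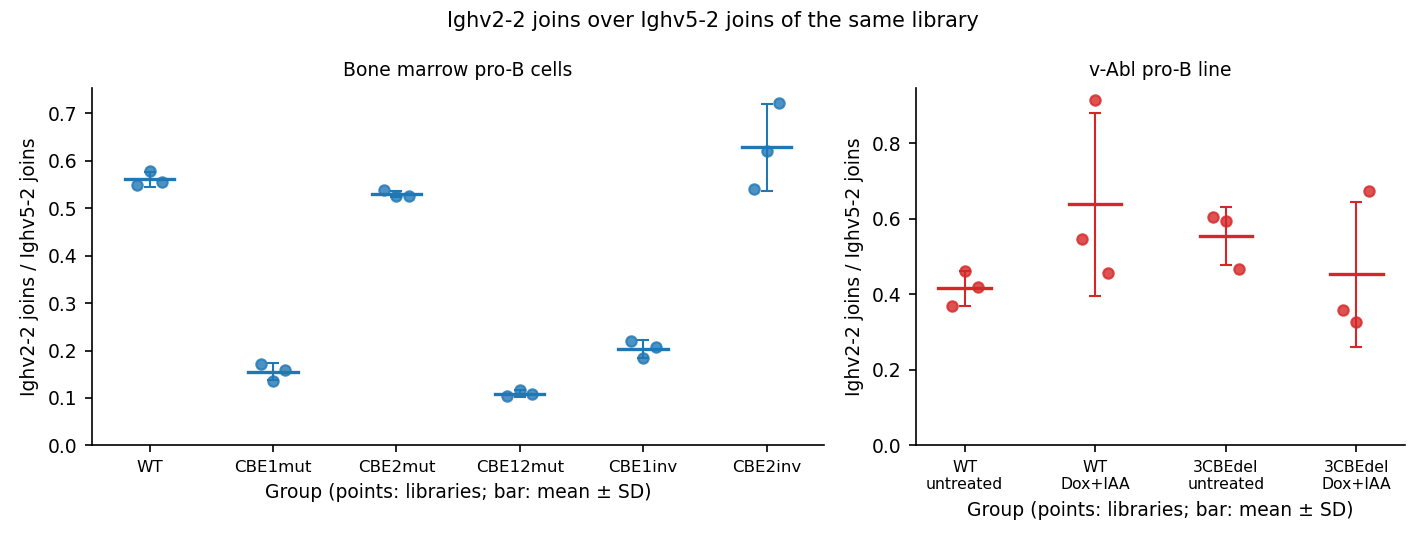
Ighv2-2 joins for each Ighv5-2 join (y axis, linear, a separate scale for bone marrow and v-Abl libraries) in each of the 10 groups. Points are libraries, and the bar and whiskers are the mean and SD of 3 libraries. In bone marrow WT, CBE2mut and CBE2inv lie between 0.526 and 0.722, and CBE1inv, CBE1mut and CBE12mut follow below at means of 0.203, 0.156 and 0.109.

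Both segments of this ratio moved. Ighv5-2 had 3315 to 3923 joins per 100000 junctions in WT libraries. CBE12mut libraries had 61408 to 65396, CBE1mut libraries 43919 to 48113 and CBE1inv libraries 16687 to 17814. It stood at 9374 to 9970 in CBE2mut and 4352 to 6445 in CBE2inv. Because so many V joins went to Ighv5-2, the share of Ighv2-2 was also taken among V joins other than those to Ighv5-2, a quantity added after the data were seen. On this scale the WT libraries had 6.90% ± 0.756 (SD, n = 3) Ighv2-2, the CBE12mut libraries 32.3% ± 1.11 and the CBE1mut libraries 29.3% ± 1.56. The corresponding shares were 12.8% ± 1.08 in CBE1inv, 16.4% ± 3.04 in CBE2mut and 9.54% ± 1.49 in CBE2inv, and every mutant group lay above all WT libraries (exact permutation p = 0.1 each, 0.108 after adjustment). With Ighv5-2 set aside, the double mutant thus had the highest share of Ighv2-2 and not one of the lowest among the mutants.

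The segments on either side of Ighv2-2 showed where it stands along the locus. In CBE12mut against WT, the log2 changes of the level were 5.24 for Ighv5-1, 4.16 for Ighv5-2, 1.79 for Ighv2-2, 0.27 for Ighv5-4 (limma adjusted p = 0.0712), -0.97 for Ighv2-3 and -2.02 for Ighv5-6. They decreased in the order of the segments on the chromosome, from the D side outwards. With the total number of junctions as library size Ighv2-2 was the farthest of these 6 segments that was called higher, whereas median-of-ratios scaling also called Ighv5-4 and Ighv2-3 higher. CBE1mut had the same order, with 3.80, 3.70, 1.85, 0.24 (adjusted p = 0.136), -0.93 and -1.85. Median-of-ratios scaling kept this order and moved the point where the sign turned: in CBE12mut it gave 2.20 for Ighv5-4, 0.98 for Ighv2-3 and -0.07 for Ighv5-6, and in CBE1mut 1.21, 0.06 and -0.85.

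In CBE1inv the changes ran from 2.34 and 2.29 for Ighv5-1 and Ighv5-2 over 0.83 for Ighv2-2 to -0.61, -1.12 and -1.28 for Ighv5-4, Ighv2-3 and Ighv5-6, all past the test, though with median-of-ratios factors Ighv5-4 missed the threshold at -0.46 (adjusted p = 0.343). In CBE2mut all 6 segments were called higher and lay closer together, at 1.66, 1.45, 1.37, 1.22, 0.86 and 0.84. CBE2inv had 0.52 (adjusted p = 0.4), 0.57, 0.70, 0.71, 0.30 (adjusted p = 0.4) and 0.35 (adjusted p = 0.41). The span from Ighv5-1 to Ighv5-6 was thus widest in CBE12mut and narrowest in CBE2mut and CBE2inv, and Ighv2-2 lay inside it in each genotype but CBE2inv.

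**Figure D4:**
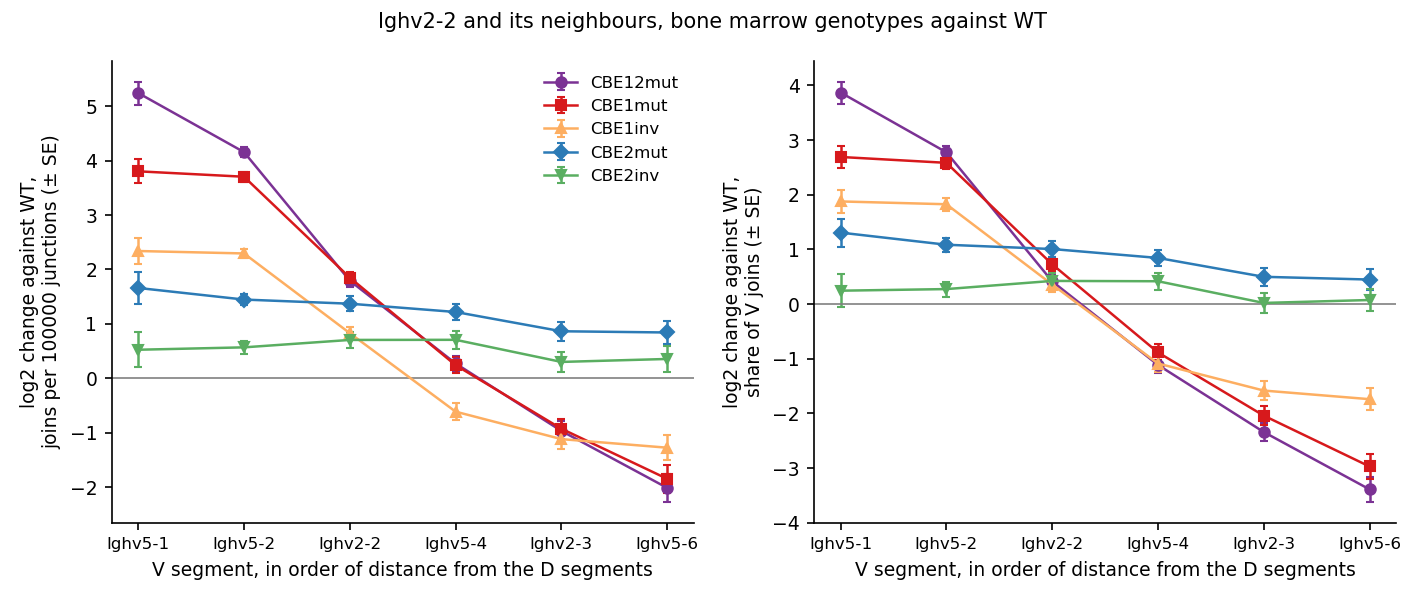
Log2 change of joins per 100000 junctions (first panel) and of the share of V joins (second panel) in 5 mutant genotypes against WT, for 6 V segments in their order from the D side (x axis, not to scale), with bars for the SE of the limma fit. In CBE12mut the change per 100000 falls from 5.24 at Ighv5-1 to -2.02 at Ighv5-6 with 1.79 at Ighv2-2. Under median-of-ratios scaling that sign turns for Ighv2-3 (0.98) but not for Ighv2-2 (3.74).

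By the total number of junctions Ighv2-2 was called higher in each mutant genotype, with at most 1 other member of its family. All 17 Ighv2 segments of the bone marrow target were fitted. In CBE12mut against WT, Ighv2-2 was the 1 member called higher and the other 16 were called lower, with a family median of -2.41 beside -1.996 over all segments. CBE1mut had 1 higher and 10 lower (median -0.93 beside -1.02), CBE1inv 1 and 2, CBE2mut 2 and 0, and CBE2inv 1 and 0. Of all fitted segments, 3.14% were called higher and 87.4% lower in CBE12mut, and 2.52% and 60.4% in CBE1mut. The corresponding shares were 2.52% and 6.92% in CBE1inv, 5.66% and 6.92% in CBE2mut, and 2.52% and 2.52% in CBE2inv. The family's lower calls in CBE12mut and CBE1mut were thus near the share over all segments. Under median-of-ratios scaling the family counts for CBE12mut were 2 higher and 1 lower, those for CBE1mut and CBE2mut 2 and 0 each, those for CBE1inv 1 and 1, and those for CBE2inv 0 and 0, so most of the lower calls depended on the scaling.

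The family members with the highest mean level over the bone marrow libraries were Ighv2-2 at 4669 joins per 100000 junctions, Ighv2-3 at 792, Ighv2-9 at 674 and an unnamed segment starting at 115364195 at 487. Ighv2-2 made up 36.9% ± 3.38 (SD, n = 3) of Ighv2 joins in WT and 85.4% ± 0.72 in CBE12mut. Loss of CBE1 or CBE2 alone left 77.4% ± 1.56 and 58.5% ± 3.33, and their inversions 55.6% ± 2.30 and 48.4% ± 3.48. By these means Ighv2-2 gave a minority of Q52 joins in WT and CBE2inv and a majority in the other 4 genotypes.

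Among 72 named V segments, those whose level followed Ighv2-2 most closely over the 18 bone marrow libraries were its D-side neighbours Ighv5-2 (Pearson r = 0.88) and Ighv5-1 (r = 0.86), and after them Ighv5-4 (r = 0.27). These correlations of log2(joins per 100000 + 1) describe libraries that fall into genotype groups and share one total, and are given without a test.

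The reads also show how Ighv2-2 was joined. Of 54125 bone marrow joins, 346 (0.639%) were in the inverted orientation and 53779 in the deletional one, and 99.87% of the deletional joins lay at the coding end. For each library the reading frame was taken from the reads that span from the conserved cysteine of Ighv2-2 to the tryptophan of JH4, which were 89.3% of bone marrow Ighv2-2 joins. In-frame joins were 33.9%, 30% and 31.2% in WT (31.7% ± 2.02, SD, n = 3). They were 20.2%, 21.9% and 24.5% in CBE12mut (22.2% ± 2.18) and 28.2%, 24.1% and 22.8% in CBE1mut (25.0% ± 2.84), both below all WT libraries. The other genotypes overlapped WT (CBE1inv did not with distinct joins), with 30.5% ± 1.49 in CBE1inv, 34.3% ± 4.50 in CBE2mut and 36.2% ± 3.81 in CBE2inv.

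Over the 6 genotypes the in-frame share differed (permutation p = 0.00071, and 0.00515 with distinct joins). Single contrasts of CBE12mut or CBE1mut with WT reached an exact p of 0.1, or 0.28 after adjustment over 14 contrasts. Joins that were in frame and free of a stop codon averaged 22.8% in WT libraries and 11.0% in those without either CBE, beside 16.1% for CBE1mut, 20.2% for CBE1inv, 26.6% for CBE2mut and 29.7% for CBE2inv (means of 3 libraries, permutation p = 0.00019 over genotypes). The genotypes with the most Ighv2-2 joins per 100000 junctions therefore had the lowest percentages of in-frame ones.

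The in-frame share of Ighv5-2 joins in the same libraries gives a reference within each library. Ighv2-2 minus Ighv5-2 was 3.11 ± 3.47 percentage points in WT, above 0 in 3 of 3 libraries, and -4.01 ± 1.64 in CBE12mut, above 0 in 0 of 3. It was -1.40 in CBE1mut (1 of 3 above 0), 3.30 in CBE1inv, 6.52 in CBE2inv and 7.42 in CBE2mut (3 of 3 in each). The difference between the segments varied over the 6 genotypes (permutation p = 0.00046, and 0.00688 with distinct joins).

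Within the bone marrow Ighv2-2 joins a D could be read in 64.0% of those at the coding end. A D was read where a run of at least 8 bases matched only 1 D family, with Ighd5 and Ighd6 pooled. In the v-Abl libraries this pool also held Gm16968, a D of mm9 without a family name. A read D is therefore a family call. Ighd1-1 and Ighd4-1 are the only named members of their families among the segments used here. Ighd1-1 (DFL16.1), a D near the V-side end of the D cluster, was 15.1%, 9.92% and 10.6% of the read D segments in WT (11.9% ± 2.78, SD, n = 3). It was 2.98%, 2.75% and 2.83% in CBE12mut (2.85% ± 0.119), the lowest of the 6 genotypes, and 12.4%, 8.76% and 13.3% in CBE1mut (11.5% ± 2.39), which overlapped WT. CBE1inv had 9.77% ± 1.03, CBE2inv 5.58% ± 0.737 and CBE2mut 5.55% ± 0.929. Both CBE2 groups lay below WT without overlap. Over the genotypes p was 8e-05 by permutation, and the single contrasts of CBE12mut, CBE2mut and CBE2inv with WT reached an exact p of 0.1 (0.233 after adjustment). Ighd4-1 (DQ52), the D closest to the J segments, went the other way, from 2.20% ± 1.46 in WT to 5.51% ± 0.609 in CBE12mut, without overlap. Ighv5-2 joins did not show this rise, with Ighd4-1 at 2.84% ± 0.892 in WT and 2.68% ± 0.379 in CBE12mut.

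So the 2 genotypes with the highest Ighv2-2 level differed in the D carried by its joins. This difference was not particular to Ighv2-2. In Ighv5-2 joins Ighd1-1 averaged 9.65% in WT, 2.58% in CBE12mut, 9.95% in CBE1mut and 6.21% in CBE1inv. The CBE2inv and CBE2mut means for Ighv5-2 joins were 4.74% and 3.91%. Compared with Ighv5-2 joins of the same library, Ighv2-2 joins carried Ighd1-1 more often, by 1.68 percentage points on average, in 16 of 18 bone marrow libraries (permutation p = 0.00281 with the 2 segments exchanged within libraries). The Ighv2-2 coding end lost 2.06 ± 0.17 bases on average in WT and 2.56 ± 0.05 in CBE12mut, without overlap (exact p = 0.1, 0.28 after adjustment), and over the 6 genotypes p was 0.194 by permutation. With distinct joins that p was 0.0463, and CBE12mut, CBE1mut, CBE1inv and CBE2mut (means of 2.49, 2.37, 2.23 and 2.18 bases) all lay above WT (1.96) without overlap, each with an exact p of 0.1. The Ighv5-2 coding end, with all lines counted, lost 1.74 ± 0.04 bases in WT and 2.07 ± 0.01 in CBE12mut, also without overlap. For Ighv5-2 the CBE1mut (1.98) and CBE1inv (1.93) libraries lay above WT too. Those of CBE2mut (1.79) and CBE2inv (1.88) overlapped it.

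**Figure D5:**
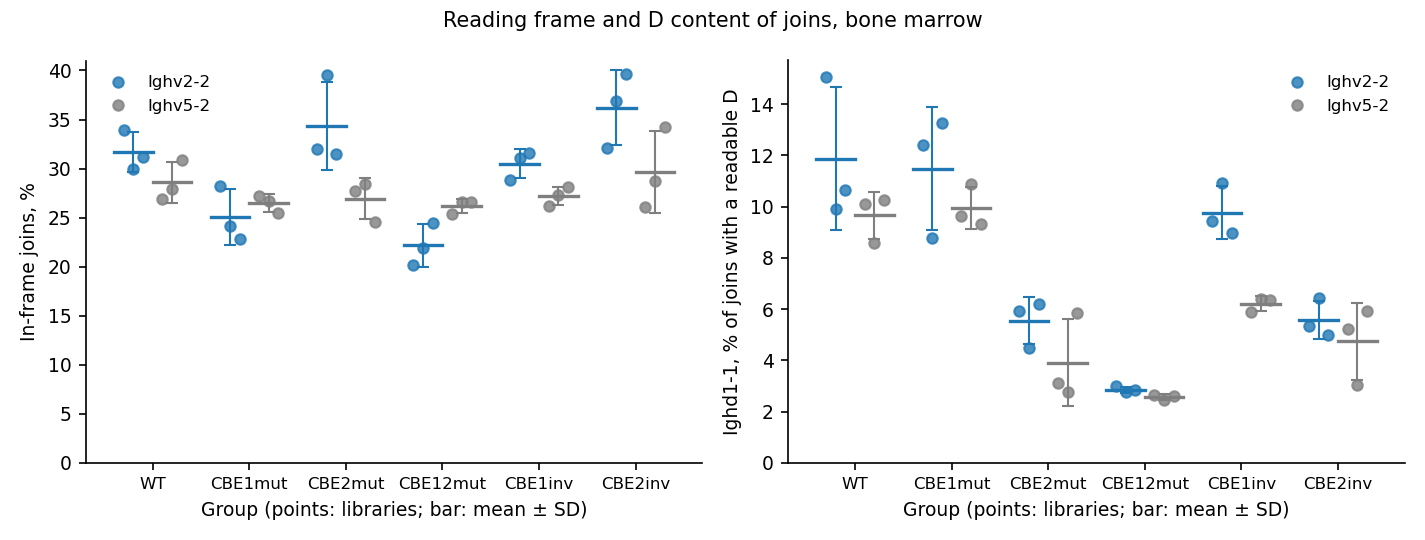
In-frame percent of joins whose frame was read (first panel, y axis) and Ighd1-1 as percent of the D segments read inside joins (second panel, y axis) for Ighv2-2 and Ighv5-2 in the 6 bone marrow genotypes. Points are libraries, and the bar and whiskers are the mean and SD of 3 libraries. CBE12mut has the lowest Ighv2-2 means of both, 22.2% and 2.85%, and is the genotype whose Ighv2-2 joins are in frame less often than its Ighv5-2 joins in 3 of 3 libraries.

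In untreated v-Abl cells V joining was rare, and Ighv2-2 took a large part of it. Untreated WT libraries had 292, 384 and 369 Ighv2-2 joins per 100000 junctions (349 ± 49.4, SD, n = 3) among 1660 to 2007 V joins per 100000 over the 6 untreated libraries. Untreated 3CBEdel libraries had 344, 294 and 270.1 (302.5 ± 37.7) and overlapped WT. As a share of V joins these were 17.2%, 20.5% and 18.4% in WT (18.7% ± 1.68) and 18.6%, 17.7% and 14.4% in 3CBEdel (16.9% ± 2.21). Ighv2-2 ranked 2 among V segments in all 6 untreated libraries.

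Loss of the 3' CBEs was followed by no detectable change of Ighv2-2 in untreated cells. The level differed by -0.19 ± 0.17 (log2 ± SE, 95% interval -0.55 to 0.17; limma adjusted p = 0.578 over 81 segments, 1.23% called in each direction). The share differed by -0.15 (95% interval -0.47 to 0.17; adjusted p = 0.694 over 69 V segments, 1.45% called in each direction). The ratio to Ighv5-2 was 0.369, 0.461 and 0.419 in WT (0.416 ± 0.0460) and 0.604, 0.593 and 0.467 in 3CBEdel (0.554 ± 0.0762). These groups did not overlap, with a log2 difference of 0.41 (exact p = 0.1), and on the side of Ighv5-2 the level changed by -0.62 (log2) in 3CBEdel (limma adjusted p = 0.0038). With median-of-ratios factors that change of Ighv5-2 was -0.61 and missed the threshold (adjusted p = 0.382).

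Treatment with IAA and Dox left Ighv2-2 lower while most other fitted segments were called higher. Treated WT libraries had 137, 304 and 194 Ighv2-2 joins per 100000 junctions (211.5 ± 84.7), of which the 304 overlapped the untreated range. Treated 3CBEdel libraries had 109, 96.2 and 220 (142 ± 68.2), below all untreated 3CBEdel libraries. In the same treated libraries V joins stood at 8927 to 8949 per 100000 in WT and at 5827 to 7504 in 3CBEdel, all above the untreated range. The share of Ighv2-2 among V joins fell to 1.53%, 3.40% and 2.17% in WT (2.37% ± 0.948) and to 1.86%, 1.59% and 2.93% in 3CBEdel (2.13% ± 0.708), far below every untreated library. Its rank among V segments in treated libraries was 6 to 18 in WT and 7 to 21 in 3CBEdel.

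By limma, the share changed by -2.99 ± 0.27 (log2 ± SE) with treatment in WT (adjusted p = 3.84e-08; 68.1% of V segments called higher, 13.0% lower) and by -3.05 ± 0.39 in 3CBEdel (adjusted p = 8.39e-06; 56.5% higher, 14.5% lower). An exact permutation of treatment within genotype gave p = 0.005, the smallest that 400 relabelings allow. The 2 treatment effects differed by -0.05 (95% interval -1.06 to 0.95; adjusted p = 0.923, 0.0% called either way). The levels per 100000 changed less, by -0.73 ± 0.30 in WT (adjusted p = 0.0328; 79.0% of segments called higher, 4.94% lower) and by -1.28 ± 0.41 in 3CBEdel (adjusted p = 0.00921; 74.1% higher, 3.7% lower). The filter for fitting counted all v-Abl libraries, so a segment could be fitted through the treated libraries alone, where it was high. The percentages called higher depend on that filter, and segments that passed in this way were not counted.

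The call on the level in WT was not firm. It did not hold in the run with all 4 groups (-0.61, adjusted p = 0.0706), with only these 2 groups in the fit (-0.75, adjusted p = 0.0621), or without untreated WT replicate 2 or 3 or treated WT replicate 1 or 3 (adjusted p = 0.0527, 0.0519, 0.134 and 0.0873). In 3CBEdel it was lost without treated replicate 1 or 2 (adjusted p = 0.05 and 0.0626). With median-of-ratios scaling the level changes were -2.83 in WT, with 49 segments called higher and 16 lower, and -2.999 in 3CBEdel, with 40 higher and 14 lower. The share, in contrast, passed in the run with all 4 groups, at -2.82 in WT and -3.36 in 3CBEdel.

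Among the neighbours, the share of V joins was lower after treatment for all 6 segments in WT, with log2 changes of -2.10 for Ighv5-1, -3.57 for Ighv5-2, -2.99 for Ighv2-2, -3.04 for Ighv5-4, -3.34 for Ighv2-3 and -2.33 for Ighv5-6. In 3CBEdel the corresponding values were -2.22, -2.65, -3.05, -2.42, -1.90 and -3.07. Of the 10 members of the Ighv2 family 7 were fitted in the v-Abl libraries. By level 1 was called higher and 1 lower in WT, and 2 higher and 1 lower in 3CBEdel. Of all fitted segments, 79.0% were called higher and 4.94% lower in WT, and 74.1% and 3.7% in 3CBEdel. By share 4 fitted members were called lower in WT and 3 in 3CBEdel, and none higher, with family medians of -2.97 and -1.89 beside 3.10 and 2.56 over all V segments. Of all fitted V segments, 68.1% were called higher and 13.0% lower by share in WT, and 56.5% and 14.5% in 3CBEdel. These percentages and the medians over all V segments depend on a filter that segments could pass through the treated libraries alone. Under median-of-ratios scaling of the level 4 family members were lower in WT and 2 in 3CBEdel, with 0 higher.

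The family's most used members over the v-Abl libraries were Ighv2-2 at 251 joins per 100000 junctions, Ighv2-3 at 92.7, Ighv2-9 at 44.6 and Ighv2-6 at 26.7. Ighv2-2 made up 66.9% ± 0.37 of Ighv2 joins in untreated WT and 60.6% ± 0.54 in untreated 3CBEdel, and 53.6% ± 19.9 and 29.7% ± 7.73 in the treated groups. The levels most like that of Ighv2-2 over the 12 v-Abl libraries were those of Ighv5-2 (r = 0.80), Ighv5-6 (r = 0.73) and Ighv5-4 (r = 0.62) among 60 named V segments, given as a description.

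The ratio to Ighv5-2 did not separate treated from untreated cells. It was 0.545, 0.913 and 0.455 in treated WT libraries (0.638 ± 0.243) and 0.358, 0.328 and 0.674 in treated 3CBEdel libraries (0.454 ± 0.192). Treatment changed the log2 ratio by 0.56 in WT (exact p = 0.2) and by -0.36 in 3CBEdel (exact p = 0.4), and by 0.10 over both genotypes (permutation within genotype, p = 0.725). The difference between the genotypes' effects was -0.92 (permutation p = 0.07). Without treated 3CBEdel replicate 3 that difference was -1.24 (exact permutation p = 0.015), larger than with this library.

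Reads of the v-Abl joins were fewer and shorter. Of 2899 joins 9 (0.310%) were inverted, and the frame was read in 97.0% and a D in 73.1% of those at the coding end. In-frame joins were 38.7% ± 2.78 in untreated WT and 32.2% ± 1.79 in untreated 3CBEdel libraries, without overlap (exact p = 0.1, 0.28 after adjustment). Treated WT libraries had 60%, 58.2% and 37.7% (51.99% ± 12.4) from 30, 91 and 53 reads, and treated 3CBEdel libraries 35.2% ± 8.43 from 24, 19 and 29 reads, both overlapping their untreated groups. With distinct joins counted once, treated WT had 54.8% ± 6.62 against 37.8% ± 2.45 untreated, without overlap. Treated 3CBEdel had 36.4% in all 3 libraries against 34.0% ± 2.13 untreated. The highest untreated 3CBEdel library stood at 36.2%, so that gap is smaller than the step of a single join. An exact permutation of treatment within genotype, over both genotypes, gave p = 0.005, the smallest possible, and 0.17 with all lines. Those treated values rest on 14 to 25 distinct joins per WT library and 11 per 3CBEdel library. The untreated genotypes overlapped on that count.

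Ighd1-1 was the D read in about as many untreated v-Abl Ighv2-2 joins as all other D segments together. It made up 54.3%, 45.5% and 48.8% of read D segments in untreated WT (49.5% ± 4.45) and 49.2%, 69.8% and 41.9% in untreated 3CBEdel (53.6% ± 14.5). After treatment it made up 9.09%, 17.2% and 17.1% in WT (14.5% ± 4.68), below all untreated WT libraries, and 39.1%, 42.9% and 6.67% in 3CBEdel (29.6% ± 19.9), which overlapped. An exact permutation of treatment within genotype gave p = 0.01, and 0.005 with distinct joins. The treated values rest on 11 to 58 read D segments per WT library and 14 to 23 per 3CBEdel library. A lower Ighd1-1 share after treatment was not particular to Ighv2-2. In Ighv5-2 joins Ighd1-1 averaged 37.4% in untreated and 18.95% in treated WT libraries. For 3CBEdel these Ighv5-2 means were 45.6% and 30.02%, and treated and untreated libraries overlapped in neither genotype. Strain, locus copy number, cell line and depth all differ between the bone marrow and v-Abl libraries, so no test was made between them.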

How the data were processed

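Per the labels, genomic DNA was made into HTGTS-V(D)J-seq libraries without the enzyme blocking step and aligned with Bowtie2 (version not given in the sources used here) to mm9, or for bone marrow to a 129 Igh sequence placed in mm9. The deposited lists hold 1 line per read with positions and orientation (other values, no count of their own). Lines were counted here per segment, within 100 bp. Segments were fitted if 3 or more libraries held 10 or more of their junctions, by limma 3.58.1 (voom, R 4.3.3), bone marrow and v-Abl apart, with adjusted p under 0.05 as threshold. The libraries of any group counted for this filter, so a segment could pass it through the group where it was high. For shares all V joins were the library size. Values that come once per library went into exact permutation tests (two-sided), with 20 relabelings for 3 against 3 libraries and a smallest p of 0.1. Segments of the bone marrow target were located by clusters of at least 50 junctions and matched with BLAST 2.17.0. Those in its 129 part were named at 96% identity or more, and V segments in its mm9 part by position, whatever their identity. Ighv5-1 was named in both targets by its place before Ighv5-2. Its best annotated match was Ighv5-6 at 91.0% identity in the bone marrow target and Ighv5-4 at 90.7% in mm9. On simulated 2-fold changes 16 of 19 changed bone marrow segments of 156 (CBE12mut against WT) were recovered, with 1 false call. For v-Abl (treated against untreated WT) 17 of 20 changed segments of 81 were recovered, with 2 false calls. Recovery where most segments move was not tested. In the data 139 of 159 segments were called lower in CBE12mut, and 64 of 81 higher in treated WT v-Abl cells. Named for comparison were the 5 neighbouring V segments, the Ighv2 family with up to 4 members of highest mean, and the 3 named segments most alike in level. The gene, lists and tests were chosen with earlier results of these data known. The distinct-join counts, the share without Ighv5-2 and the run alternatives were added after the data were seen. Replicate numbers did not pair the libraries (correlations of deviations from -0.31 to 0.30 in bone marrow), so no block was used. PCR copies carry no molecular identifiers, so lines are not independent molecules.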

Additional observations from a re-analysis of the deposited data

Results flagged for a closer look

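The in-frame share of Ighv2-2 minus that of Ighv5-2 differed in sign between some genotypes. It lay above 0 in all 3 WT libraries (mean 3.11 percentage points) and below 0 in all 3 CBE12mut libraries (mean -4.01), a difference of -7.12 percentage points, with an exact permutation p of 0.1. Counting distinct joins once, 2 of 3 WT libraries lay above 0. CBE2mut lay above 0 in all 3 libraries (mean 7.42), -11.4 percentage points from CBE12mut to CBE2mut, again with an exact p of 0.1, and these 2 genotypes were sequenced in different runs, whose part in the result was not tested. Groups of 3 libraries are too small for a check of single outlying libraries.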

How the results depend on the processing

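Of 149 values of the level under other settings 145 kept direction and side of the threshold, and 126 of 135 did so for the share, 87 of 88 for the ratio; leaving out 1 library did so in 84 of 90, 78 of 90 and 89 of 90. Under median-of-ratios factors the level gave 0.61 for CBE2inv against WT and 0.91 for CBE12mut against CBE1mut. Treatment of WT v-Abl cells gave -0.61 in the run with all groups, -0.75 with only the 2 groups fitted and -1.05 to -0.50 without single libraries, and in 3CBEdel -1.54 to -1.10. The share in CBE1inv against WT was 0.30 inside the segment, 0.36 by limma trend and 0.27 to 0.43 without single libraries. CBE2inv against WT was 0.48 with identical reads counted once and 0.56 with distinct joins. Without single libraries CBE12mut against CBE1mut ranged from -0.39 to -0.26 and CBE2inv against CBE2mut from -0.72 to -0.49. 3CBEdel against WT, treated, was 0.0228 with identical reads once, 0.11 with distinct joins and -0.45 to 0.11 without single libraries, and the difference between treatment effects 0.16, 0.37, 0.0400 by limma trend, and -0.31 to 0.25. For the ratio, treatment in 3CBEdel gave 0.0745 with distinct joins, and the difference between effects -1.24 to -0.62. In-frame percent with treatment in 3CBEdel was -1.69 with identical reads once and -1.81 to 6.02 without single libraries. Bases lost ranged from -0.0439 to 0.43 for CBE2inv against WT, -0.0033 to 0.19 for treated WT and -0.25 to 0.0876 for treated 3CBEdel. Ighd1-1 in CBE1mut against WT was 0.0168 with identical reads once, 0.94 with distinct joins and -1.37 to 1.199. The inverted share in WT bone marrow was 0.865% with identical reads once and 0.736% with distinct joins. The cause of these changes was not tested.

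Counts of segments called differed over 1.5 times between total and median-of-ratios scaling, with 5 higher and 139 lower against 15 and 6 in CBE12mut, 4 and 96 against 7 and 0 in CBE1mut, 4 and 11 against 4 and 2 in CBE1inv, 9 and 11 against 11 and 3 in CBE2mut, 4 and 4 against 0 and 3 in CBE2inv, and 68 and 5 against 0 and 7 in CBE1inv against CBE1mut. They were 3 and 3 against 3 and 7 in CBE2inv against CBE2mut, 3 and 85 against 11 and 1 in CBE12mut against CBE1mut, and 4 and 108 against 15 and 11 in CBE12mut against CBE2mut. With the replicate number as a block no call on Ighv2-2 changed: CBE12mut against WT gave 1.80 for the level and 0.41 for the share under the replicate block. Depth limits the treated v-Abl libraries most, with 11 to 27 distinct Ighv2-2 joins each.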
